A study of Sus scrofa with 24 samples.

Results

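SOX9 and COL11A1, a pair of genes best known from cartilage, were followed through the veins of pigs fitted with a haemodialysis graft between artery and vein. They are 2 of the 6124 genes with a symbol on the array and are read by 3 of its 43603 probes, 1 for SOX9 and 2 for COL11A1, found by gene name. The genes were chosen by their late rise at the anastomosis over the downstream vein in these same samples, so the day 14 values, the difference between those sites at day 5 and the changes towards day 14 are given as a description, with no test. Tests are given for the jugular vein between its days and for each graft site against it at day 5; the latter share their day 5 graft samples with the choice.

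The vein wall at the outflow of such a graft can narrow. Total RNA was taken at 3 sites, namely the venous anastomosis, the vein that runs downstream of it, and, as control, the external jugular vein. Each site was sampled at day 5 and at day 14 after graft placement, with 4 biological replicates, which gave 24 samples in 6 groups of 4. Sus scrofa is the only organism, and age, strain, sex and whether samples of 1 number came from 1 animal are not stated in the sources used here. Each sample is whole tissue, so fewer cells of a type and less RNA per cell cannot be told apart.

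SOX9 is a transcription factor of the SRY-box family that commits mesenchymal cells to the chondrocyte fate and switches on the genes of cartilage matrix, those of type II and type XI collagen and aggrecan among them. COL11A1 encodes the alpha 1 chain of type XI collagen, a minor fibril-forming collagen that sits inside cartilage fibrils, where it starts their assembly and limits their width; it can also pair with chains of type V collagen outside cartilage. In the vessel wall SOX9 is known from smooth muscle cells that take on cartilage-like traits, and COL11A1 from activated fibroblasts.

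The array reads each gene through a single-stranded probe of 60 bases. The leading 30 bases of each are shown because the COL11A1 results rest on a pair of probes that lie far apart on the same transcript and hybridise separately.
SOX9 probe: acattccaagacagaaacattagctatcca
COL11A1 5' probe: ttgacaccaatggaattacggtttttggaa
COL11A1 3' probe: gatgccagatttcactggaacatttcaact
On the transcript records named in the files, the SOX9 probe starts at base 1687, the COL11A1 5' probe at base 777 and the COL11A1 3' probe at base 6965. The longest run of bases that the COL11A1 probes share is 7. GC content was 45.0% for the SOX9 probe and 35.0% for each COL11A1 probe. None of these spots was saturated or marked as an outlier on any array.

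The samples lay on 16 arrays of 7 slides read at 5 scan dates. A jugular sample (dye Cy3) shared its array with the anastomosis sample (Cy5) of the same number and day, and the downstream samples (Cy5) lay on 8 other arrays, so dye and site cannot be told apart wherever the control is compared. Between 56.9% and 80.2% of probes were well above background in a sample. The arrays of replicates 1 and 2 were quantified with an earlier protocol than those of replicates 3 and 4. They also lay on other slides and were read at other scan dates, so protocol, slide and scan date cannot be told apart there. Their shares of probes well above background were 56.9% to 73.9% against 70.1% to 80.2%. Levels are log2 intensities after background correction and normalisation, so a difference of 1 is a doubling, and errors of differences are standard errors of the fit. As vein markers, 2 of 5 smooth muscle and 4 of 5 endothelial genes were measured, and those measured were well above background in every sample of all 6 groups. The authors' deposited table of log2 values, used only as an alternative, followed the scanner values of replicates 1 to 3 (r of 0.69 to 0.87 over probes centred across samples, each best with its own sample in 18 of 18) but not those of replicate 4 (0.02 to 0.56, 0 of 6), so results from it are given with and without replicate 4.

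SOX9 was above background throughout the graft veins and near background in the control vein. It was well above background in 16 of 16 anastomosis and downstream samples and in 1 of 8 jugular samples. Replicates 1 to 4 of the day 14 anastomosis read 7.72, 7.68, 7.53 and 7.00, and the day 14 downstream veins read 6.50, 6.73, 6.77 and 6.63. Every anastomosis sample lay above every downstream sample on that day. The difference was 0.82 ± 0.15 (95% interval 0.49 to 1.15), or 1.77-fold, and it was positive in 4 of 4 pairs of the same number, at 1.21, 0.95, 0.76 and 0.37. That day and pair of sites chose the gene, so the separation is a description. The share of all features that separate in this way was not counted.

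At day 5 the order of the sites was not that of day 14. The anastomosis samples read 7.55, 7.08, 6.57 and 6.37 for SOX9, and the downstream samples 7.28, 7.29, 7.24 and 6.75. The ranges overlapped, and the anastomosis was the higher in 1 of 4 pairs. Its difference from the downstream vein was -0.24 ± 0.15 (95% interval -0.57 to 0.09). In that comparison 0 of 36140 features (0%) passed a Benjamini-Hochberg adjusted p of 0.05 in limma, and 3678 had an unadjusted p under 0.05. Between the days the SOX9 difference between the sites moved by 1.07 ± 0.22. The group means moved at both sites. The mean was 6.89 ± 0.53 (SD, n = 4) at day 5 and 7.48 ± 0.33 at day 14 in the anastomosis, and 7.14 ± 0.26 and 6.66 ± 0.12 downstream. The anastomosis change was 0.59 (95% interval -0.05 to 1.22), an interval that includes 0. No error was estimated for the downstream change, so the part of each site was not tested. The day 5 downstream group held a replicate 4 that stood apart at 6.75.

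**Figure D1:**
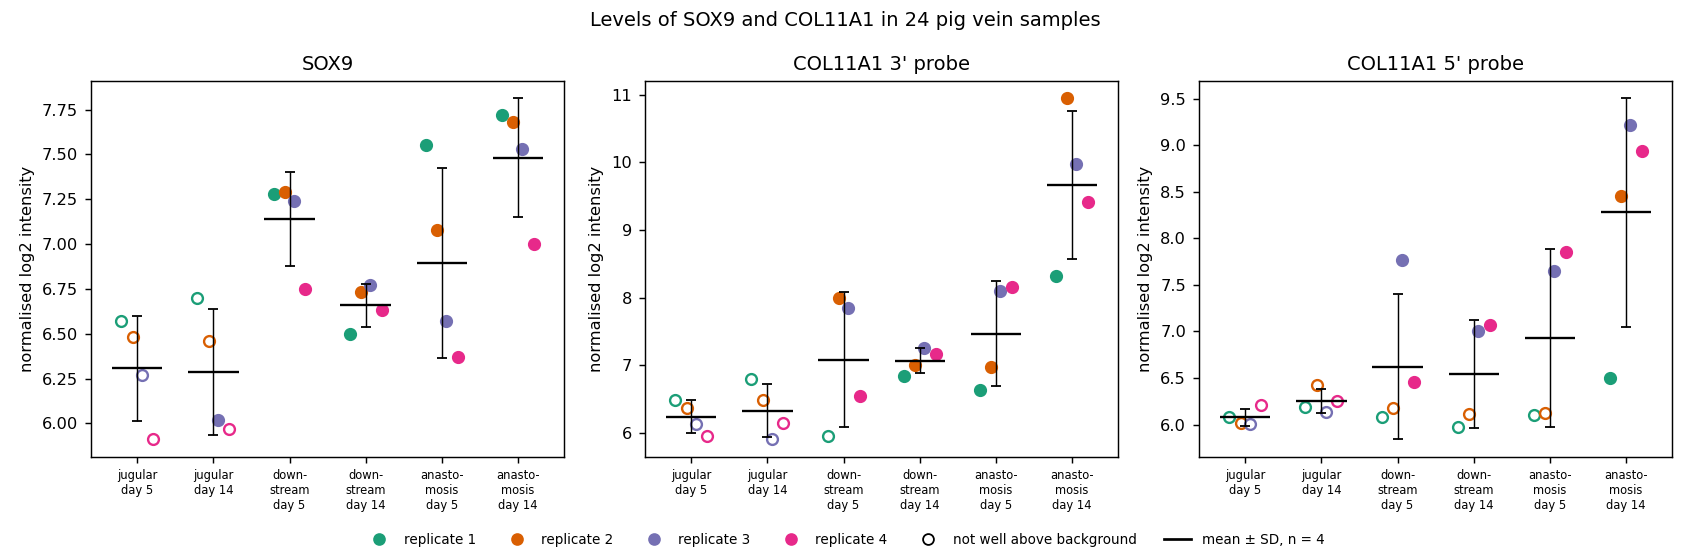
Normalised log2 intensity of SOX9 and of the COL11A1 3' and 5' probes in each of the 24 samples, by site and day, with the mean and SD of each group of 4; open points are not well above background. All 4 day 14 anastomosis samples lie above all day 14 downstream samples for SOX9 and for the COL11A1 3' probe, and 3 of 4 do for the 5' probe.

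SOX9 also read higher than the jugular vein at day 5 at both graft sites, against a control near background. The jugular samples read 6.57, 6.48, 6.27 and 5.91 at day 5, where 0 of 4 were well above background, and 6.70, 6.46, 6.02 and 5.97 at day 14. The downstream day 5 veins lay wholly above the day 5 controls, whereas the anastomosis samples overlapped them, since replicate 4 of the anastomosis (6.37) lay under replicates 1 and 2 of the control. The anastomosis exceeded the control by 0.59 ± 0.15 (limma adjusted p = 0.0156; higher in 4 of 4 pairs) and the downstream vein did so by 0.83 ± 0.15 (adjusted p = 0.00967; 4 of 4 pairs). The dim control gave only a bound, and that bound (6.31) equalled its measured mean. The folds of the means, 1.50 (6.89 and 6.31) and 1.78 (7.14 and 6.31), are therefore those of the fitted differences. They are minima as to the dim control only. They leave out the spread between samples, and other settings gave smaller differences. The 95% intervals of the fitted log2 differences were 0.26 to 0.92 at the anastomosis and 0.5 to 1.16 downstream. The bound sets the mean of the bright group against the higher, array by array, of the dim probe's own value and the lowest signal well above background, and it is open to dye bias.

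Of the 3 member probes, SOX9 alone passed in each of these day 5 comparisons, where 9.75% of all features were called higher and 10.3% lower at the anastomosis, and 3.4% higher and 4.98% lower downstream. The last of these rested on single replicates: 1227 features were called higher downstream with all 4 replicates, 7 without replicate 3 and 3 without replicate 4. All 3 passed the filter for testing, which asked for a signal well above background in at least 4 of 24 samples, and they did so through graft samples. The count and the adjusted p-values of SOX9 against the jugular vein are therefore a description and support nothing further. Without the replicate block, which pairs samples of the same number and day, the SOX9 differences had limma adjusted p-values of 0.152 and 0.0862. Leaving out replicate 2 or replicate 4 also left the anastomosis difference above the threshold (limma adjusted p = 0.0829 and 0.0667), and leaving out replicate 2, 3 or 4 did so for the downstream difference (0.076, 0.0855 and 0.118). Within the replicates of the earlier quantification protocol, slides and scan dates the anastomosis exceeded the control by 0.79, and within those of the later by 0.38.

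At day 14, where 1 of 4 jugular samples was well above background, the mean was 7.48 at the anastomosis, 6.66 downstream and 6.29 in the control. No fold against that control is given, since its other 3 samples hold only an upper limit. The jugular vein itself differed by -0.02 ± 0.22 between day 5 and day 14 (adjusted p = 1.00; 0 of 36140 features called in limma, 678 at an unadjusted p under 0.05). From high to low the group means of SOX9 ran from the day 14 anastomosis through downstream day 5, anastomosis day 5, downstream day 14 and jugular day 5 to jugular day 14. Each neighbouring pair in that order had overlapping ranges, with gaps of 0.34, 0.25, 0.23, 0.35 and 0.02.

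COL11A1 had the larger late difference. Its 3' probe read 8.32, 10.95, 9.97 and 9.42 in replicates 1 to 4 of the day 14 anastomosis, and 6.84, 7.00, 7.26 and 7.16 in the day 14 downstream veins. All anastomosis samples were above all downstream samples, which is a description as for SOX9. The anastomosis samples spread widely, with replicate 1 lowest and replicate 2 highest. In the scanner's linear mean signal, before background subtraction, the same anastomosis spots read 361, 3922, 1798 and 976 over local backgrounds of 47 to 69.5, and the downstream spots 111, 137, 221 and 179 over 47 to 78. The difference was 2.60 ± 0.48 (95% interval 1.58 to 3.62), or 6.05-fold, and the pairs gave 1.48, 3.95, 2.70 and 2.26. Among 36140 features ordered by this difference the 3' probe was number 6, the 5' probe number 43 and SOX9 number 510, which restates how they were chosen.

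The second COL11A1 probe gave the same order of sites at a lower size. The 5' probe read 6.50, 8.45, 9.22 and 8.94 in the day 14 anastomosis and 5.97, 6.11, 7.01 and 7.07 downstream. Here the groups overlapped, because replicate 1 of the anastomosis lay under replicates 3 and 4 of the downstream vein, although it exceeded its own same-number sample. Replicates 1 and 2 of the downstream vein were not well above background, at signals of 55 and 56 over local backgrounds of 55 and 47, so the difference is given on the log2 scale with no fold. It was 1.74 ± 0.40 (95% interval 0.87 to 2.60), with 0.53, 2.34, 2.20 and 1.87 in the 4 pairs. In the comparison of the day 14 sites over all features, 0% (0 of 36140) passed an adjusted p of 0.05 in limma, and 5125 had an unadjusted p under 0.05. Without replicate 3 that count was 306 higher and 174 lower.

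**Figure D2:**
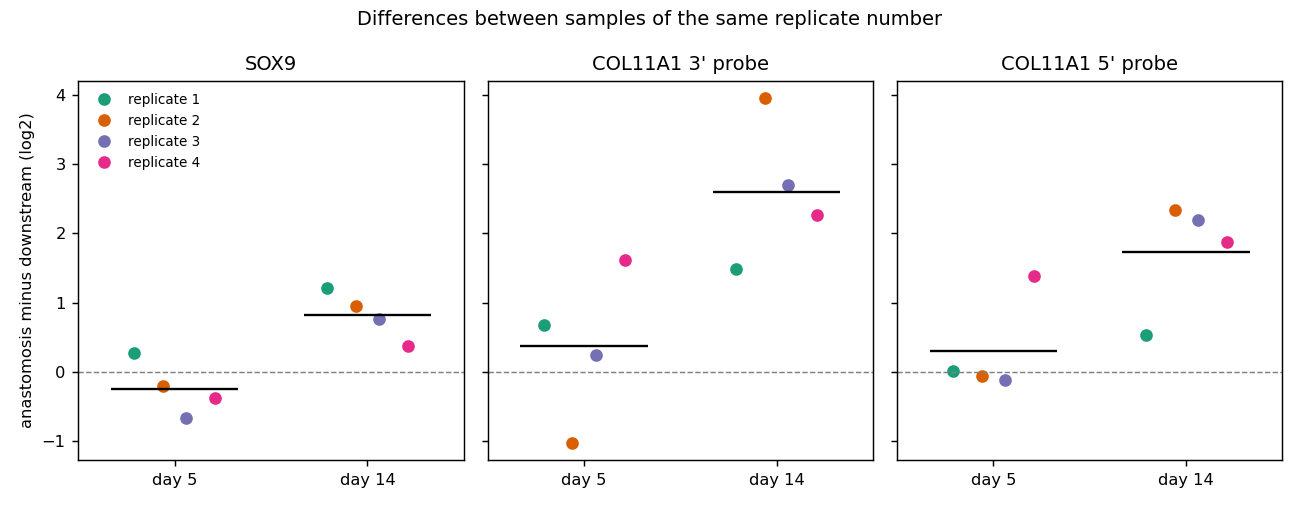
Anastomosis minus downstream vein in log2 units for each replicate number at day 5 and at day 14, with the mean of the 4 differences as a line, for SOX9 and both COL11A1 probes. At day 14 all 12 differences are above 0 (0.37 to 3.95), whereas at day 5 they lie on both sides of 0 for each probe.

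At day 5 COL11A1 did not separate the graft sites. The 3' probe read 6.63, 6.97, 8.10 and 8.15 at the anastomosis and 5.95, 7.99, 7.85 and 6.54 downstream, ranges that overlapped. The difference was 0.38 ± 0.48 (95% interval -0.64 to 1.40), with the anastomosis higher in 3 of 4 pairs. The 5' probe read 6.10, 6.12, 7.65 and 7.85 at the anastomosis and 6.08, 6.18, 7.77 and 6.46 downstream, a difference of 0.31 ± 0.40 (95% interval -0.56 to 1.17). Those intervals still allow a difference past a doubling in favour of the anastomosis. The site difference grew from day 5 to day 14 by 2.22 ± 0.67 for the 3' probe and 1.43 ± 0.57 for the 5' probe.

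For COL11A1 the group means moved between the days mainly at the anastomosis, and no change was fitted downstream. The 3' probe averaged 7.46 ± 0.78 (SD, n = 4) there at day 5 and 9.66 ± 1.10 at day 14, a rise of 2.20 ± 0.57 (4.61-fold) with no overlap between the days. Its downstream means were 7.08 ± 1.00 and 7.07 ± 0.18. The 5' probe averaged 6.93 ± 0.95 and 8.28 ± 1.23 at the anastomosis, a difference of 1.35 ± 0.66, and the days overlapped because replicate 1 of day 14 (6.50) lay under replicates 3 and 4 of day 5. Over all features, 2 of 36140 (0.00553%) changed at the anastomosis between the days by limma at an adjusted p of 0.05, and 3144 had an unadjusted p under 0.05. The days were compared with no block, although samples of 1 site and number also deviated together across days (correlations of 0.07 to 0.63, 11 of 12 over 0.1). With a replicate block across days the differences were the same and their standard errors were 0.45 for the 3' probe, 0.31 for the 5' probe and 0.15 for SOX9, against 0.57, 0.66 and 0.28.

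In the jugular vein COL11A1 was not well above background in any of 8 samples on either probe. Its scanner mean signals there, before subtraction, were 26 to 34 on the 3' probe and 23 to 33 on the 5' probe. Normalised levels were 6.79, 6.48, 5.90 and 6.14 at day 14 and 6.49, 6.37, 6.13 and 5.95 at day 5 on the 3' probe. By group mean the day 14 anastomosis was therefore at least 9.94-fold higher on the 3' probe (9.66 against a measured 6.33). On the 5' probe it was at least 3.97-fold higher (8.28 against 6.25). These minima leave out the spread between samples. The fitted differences were 3.34 ± 0.48 (95% interval 2.32 to 4.35) and 2.03 ± 0.40 (95% interval 1.16 to 2.89). Between the days the jugular level differed by 0.09 (adjusted p = 1.00) and by 0.17 ± 0.12 (adjusted p = 1.00). Both probes read near the floor of the array in this vein, so no fold between its days is given.

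**Figure D3:**
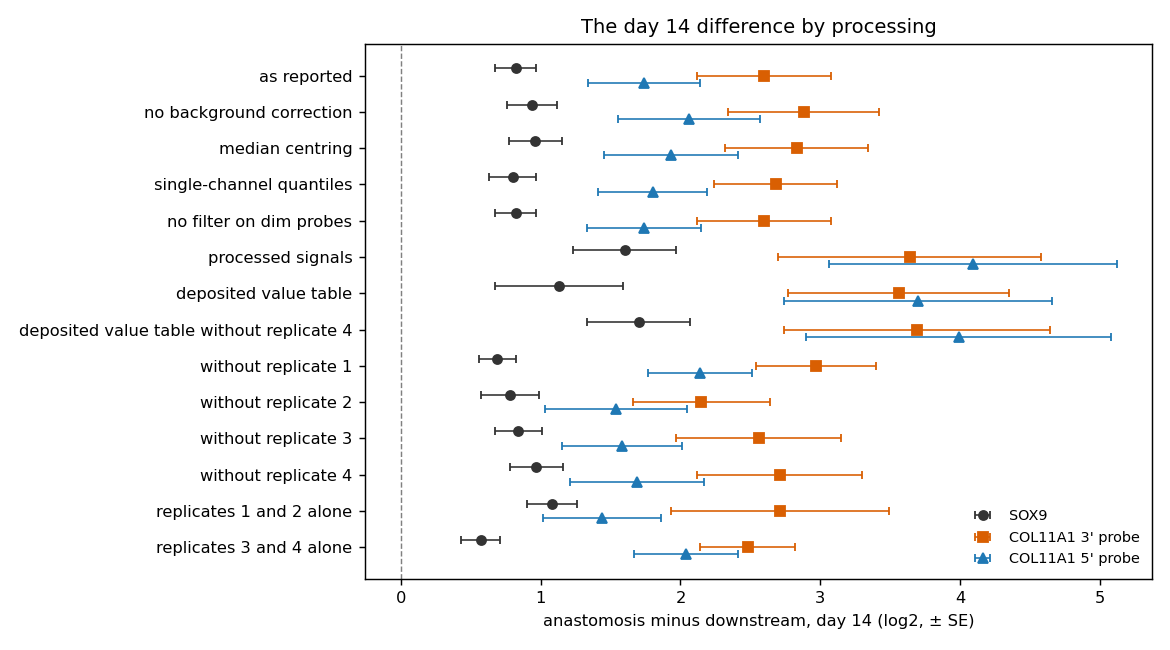
Day 14 difference between anastomosis and downstream vein (log2, ± SE) for SOX9 and the COL11A1 3' and 5' probes as reported and under 13 other ways of processing or choosing samples. All values are above 0; SOX9 runs from 0.57 to 1.70, the 3' probe from 2.15 to 3.69 and the 5' probe from 1.44 to 4.09.

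Against the jugular vein at day 5, neither COL11A1 probe passed. The anastomosis difference was 1.23 ± 0.48 on the 3' probe (limma adjusted p = 0.0866; 95% interval 0.21 to 2.24). Its means there differed by 2.34-fold, a minimum as to the dim control only, whose bound equalled its measured mean (6.24). That fold leaves out the spread between samples. On the 5' probe the difference was 0.85 ± 0.40 (adjusted p = 0.166), where 2 of 4 anastomosis samples were well above background and no fold is given. Downstream the differences were 0.85 ± 0.48 (adjusted p = 0.288) and 0.54 ± 0.40 (adjusted p = 0.433). These values divided between replicates 1 and 2 and replicates 3 and 4, which differ in quantification protocol, slides and scan dates. On the 3' probe the anastomosis exceeded the control by 0.37 in replicates 1 and 2 and by 2.08 in replicates 3 and 4. On the 5' probe it did so by 0.06 and 1.64. At day 14 the downstream mean was at least 1.64-fold above the control mean on the 3' probe (7.07 and 6.33). That minimum allows for the dim control only, not for the spread between samples. The fitted difference was 0.74 ± 0.48 (95% interval -0.28 to 1.76), an interval that includes 0. On the 5' probe 2 of 4 downstream samples and 0 of 4 controls were well above background, with means of 6.54 and 6.25, and no fold is given.

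Detection of COL11A1 divided the same way. The 3' probe was well above background in 15 of 16 graft samples, the exception being replicate 1 of the downstream vein at day 5. The 5' probe was so in 10 of 16: all 4 of the day 14 anastomosis and, in each of the other 3 graft groups, 0 of 2 samples of replicates 1 and 2 and 2 of 2 samples of replicates 3 and 4. The part of the quantification protocol, the slides, the scan dates or the animals in this division was not tested. The day 14 site difference was present within either pair of replicates, at 2.71 and 2.48 on the 3' probe, 1.44 and 2.04 on the 5' probe, and 1.08 and 0.57 for SOX9.

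By group mean the 3' probe ran from the day 14 anastomosis through anastomosis day 5, downstream day 5, downstream day 14 and jugular day 14 to jugular day 5. The day 14 anastomosis did not overlap the next group (gap 2.20), nor did downstream day 14 overlap jugular day 14 (gap 0.74); the other gaps, 0.38, 0.01 and 0.09, lay within overlapping ranges. The 5' probe gave the same order of groups, and all 5 neighbouring pairs overlapped (gaps 1.35, 0.31, 0.08, 0.29 and 0.17).

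SOX9 and COL11A1 shared their highest group but not the order of samples within groups. Over the 24 samples the levels of the COL11A1 probes correlated at 0.86, and their deviations from the group means at 0.66. SOX9 correlated with the 3' probe at 0.63 over all samples and at -0.05 within groups, and with the 5' probe at 0.38 and -0.43. The points share arrays, dye, quantification protocol and scan dates. At the day 14 anastomosis replicate 1 was the highest for SOX9 and the lowest for both COL11A1 probes.

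The lists of neighbouring genes held 103 genes in 6 groups, of which 54 had a named probe and 53 were tested. They were chosen with earlier results of these data known, so their counts are a description. At day 14, 0 of the 53 differed between anastomosis and downstream vein by limma at an adjusted p of 0.05, with 9 at an unadjusted p under 0.05. Of all 36140 features 0 passed there and 14.2% had an unadjusted p under 0.05, so both counts lie near the background. The median difference of the 53 genes was 0.14, against -0.01 over all features. Against the jugular vein, 13 of 53 passed at the day 14 anastomosis (11 higher, 2 lower), where 4.77% of all features were called higher and 4.1% lower. At day 5, 14 were higher and 5 lower there, where the shares of all features were 9.75% and 10.3%. Downstream, 4 of 53 passed at day 5, all higher, where 3.4% of all features were called higher and 4.98% lower, so that count lies near the background. At day 14, 3 passed downstream, all higher, where 0.645% of all features were called higher and 0.268% lower. Without replicate 1, 2, 3 or 4 the anastomosis count of day 14 was 5, 12, 7 or 1, and that of day 5 was 14, 17, 9 or 6. With no replicate block these counts were 5 and 9. The downstream counts ran from 0 to 8 at day 5 and from 0 to 3 at day 14 when 1 replicate was left out.

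Of cartilage matrix genes, 6 of 25 could be tested, and none passed against the downstream vein or, at day 14, against the jugular vein (0 of 6 in limma; 0 and 3 at an unadjusted p under 0.05). Over all features 0% passed between the day 14 sites, and 14.2% had an unadjusted p under 0.05. Against the day 14 control 4.77% of all features were called higher and 4.1% lower, and 25% had an unadjusted p under 0.05. The median difference of these 6 genes between anastomosis and downstream vein at day 14 was 0.21, with 5 of 6 above 0. Type II and type IX collagen, the fibril partners of type XI in cartilage, were not analysed here, nor was COL11A2. ACAN, the large aggregating proteoglycan aggrecan, read 10.65, 14.34, 13.75 and 10.11 on its brightest probe at the day 14 anastomosis and 10.29, 9.14, 11.67 and 11.94 downstream. The groups overlapped, with replicates 2 and 3 of the anastomosis far above the rest, and those samples were also the highest on the COL11A1 3' probe. The difference was 1.45 ± 0.83 (limma adjusted p = 0.445).

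ACAN was bright in the control vein too, where the day 14 samples read 10.35 ± 0.19 (SD, n = 4). At the anastomosis its mean was 7.98 ± 0.93 at day 5 and 12.21 ± 2.14 at day 14, a difference of 4.23 ± 0.98 (adjusted p = 0.301). The other sites also had the higher mean at day 14. In the control it was 8.81 at day 5, a difference of 1.54 between the days. Downstream the means were 9.15 at day 5 and 10.76 at day 14. The third ACAN probe followed the brightest at the day 14 anastomosis (6.48, 8.50, 7.88 and 6.58), while the second stayed between 6.34 and 7.03 in all 24 samples. MATN3, the cartilage linker protein matrilin 3, was well above background in 3 of 4 day 14 samples at each graft site and in 0 of the other 16 samples. Its day 14 means were 6.77 at the anastomosis, 6.51 downstream and 6.15 in the control, and the sites differed by 0.27 ± 0.20 (limma adjusted p = 0.585). HAPLN1, which links aggrecan to hyaluronan, was well above background in 0 of 24 samples (5.83 to 6.26). COMP, a matrix glycoprotein of cartilage and tendon, differed between the day 14 sites by 0.15 ± 0.26 (adjusted p = 0.83).

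**Figure D4:**
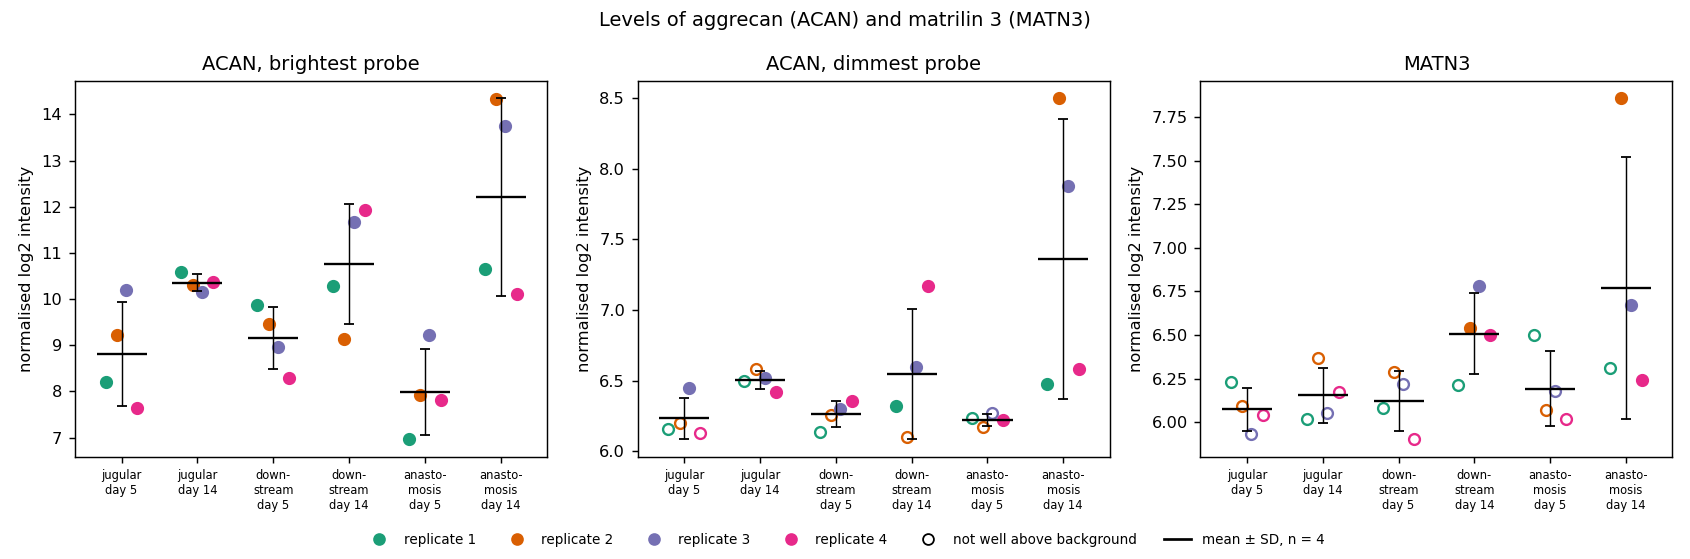
Normalised log2 intensity of the brightest and the dimmest ACAN probe and of MATN3 in each of the 24 samples, with the mean and SD of each group of 4; open points are not well above background. Replicates 2 and 3 of the day 14 anastomosis are the highest samples on both ACAN probes, at 14.34 and 13.75 on the brightest, while replicates 1 and 4 lie within the downstream range.

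Of the 6 cartilage matrix genes tested, 1 was called higher and 1 lower than the control at the day 5 anastomosis. Over all features 9.75% were called higher and 10.3% lower in that comparison, so the count is not read as a result about the list. COL27A1, a fibrillar collagen of growth cartilage, was higher by 1.34 ± 0.34 (limma adjusted p = 0.0135), and CILP, a cartilage intermediate layer protein, was lower at -2.11 ± 0.67 (adjusted p = 0.0381). Among the other SOX factors, 6 of 13 were tested and only SOX18, a factor of endothelial and lymphatic cells, passed in any comparison. It was higher than the control at the anastomosis by 1.27 ± 0.20 at day 14 (adjusted p = 0.00288) and by 1.20 at day 5 (0.00127), and downstream at day 5 by 0.74 (0.0337). SOX6, a partner of SOX9 in chondrocytes, differed between the day 14 sites by -0.03 ± 0.15 (adjusted p = 0.951), and its partner SOX5 was not analysed here. SOX11, a factor active in embryonic tissues, stood 0.76 ± 0.32 above the day 14 control (adjusted p = 0.158).

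Among the other fibrillar collagens, 6 of 7 were tested. COL5A3, a chain of type V collagen, passed against the control at the anastomosis on both days, at 0.98 ± 0.27 (limma adjusted p = 0.0389) and 1.01 (0.018). COL5A1, the type V chain closest in kind to COL11A1, stood 1.32 ± 0.44 above the downstream vein at day 14 (adjusted p = 0.224), and COL5A3 0.81 ± 0.27 (0.231). COL5A2, the other measured chain of type V, and the abundant interstitial collagens had smaller differences between the day 14 sites, 0.14 ± 0.35 for COL5A2, 0.10 ± 0.36 for COL1A1 and -0.14 ± 0.18 for COL3A1.

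Genes of hypertrophic cartilage and bone, the stages that follow SOX9 in the growth plate, were tested for 10 of 18 members. SPP1, the bone matrix protein osteopontin that macrophages also make, was higher than the control at the day 14 anastomosis by 5.12 ± 1.06 (limma adjusted p = 0.0111). MEF2C, a transcription factor of chondrocyte hypertrophy, was higher by 0.29 (0.0386), and PTH1R, the parathyroid hormone receptor that holds hypertrophy back, was lower at -1.13 (0.0239). IBSP, bone sialoprotein, was higher by 5.08 ± 1.07 at day 5 (adjusted p = 0.0047), where 2 of 4 controls were well above background, and stood at 3.59 ± 1.07 at day 14 (0.0501), where 1 of 4 was. RUNX2, the transcription factor of bone formation, lay near background, with 0 of 8 controls, 2 of 4 anastomosis samples on each day and 1 of 4 downstream samples on each day well above it. Its day 5 means were 6.54 at the anastomosis and 6.14 in the control, so its call there (adjusted p = 0.0303) is on a probe at background. COL10A1, the collagen of hypertrophic chondrocytes, differed between anastomosis and downstream vein at day 14 by 0.02 ± 0.07 (limma adjusted p = 0.94).

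Signals that act upstream of SOX9, those of the TGF-beta and BMP families, were tested for 18 of 29 members. Against the control at the day 14 anastomosis the transducers SMAD1 (0.67, limma adjusted p = 0.0319) and SMAD2 (0.47, 0.0316) were higher and the ligand BMP4 was lower (-0.96, 0.0202). BMP5, another ligand, had the lowest value of the list between the day 14 sites at -0.93 ± 0.21 (adjusted p = 0.132), and TGFB1 read 0.48 ± 0.24 (0.385).

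Tendon and fibrocartilage genes gave the highest share of calls against the control at the day 14 anastomosis among the 6 lists, 5 of 7, where 4.77% of all features were called higher and 4.1% lower. The list was chosen with earlier results of these data known, so this share is a description. Over all 6 lists the 13 calls of this comparison numbered 1 without replicate 4 and 5 with no replicate block. THBS4, a thrombospondin of tendon matrix, was higher by 6.60 ± 0.91, POSTN (periostin) by 2.95, ASPN (asporin) by 2.19, TNC (tenascin C) by 1.91 and TNMD (tenomodulin), with 1 of 4 controls well above background, by 0.80. Between the day 14 sites the list's median was 0.67 and 0 of 7 passed in limma, with 2 at an unadjusted p under 0.05. Over all features 0% passed there and 14.2% had an unadjusted p under 0.05.

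**Figure D5:**
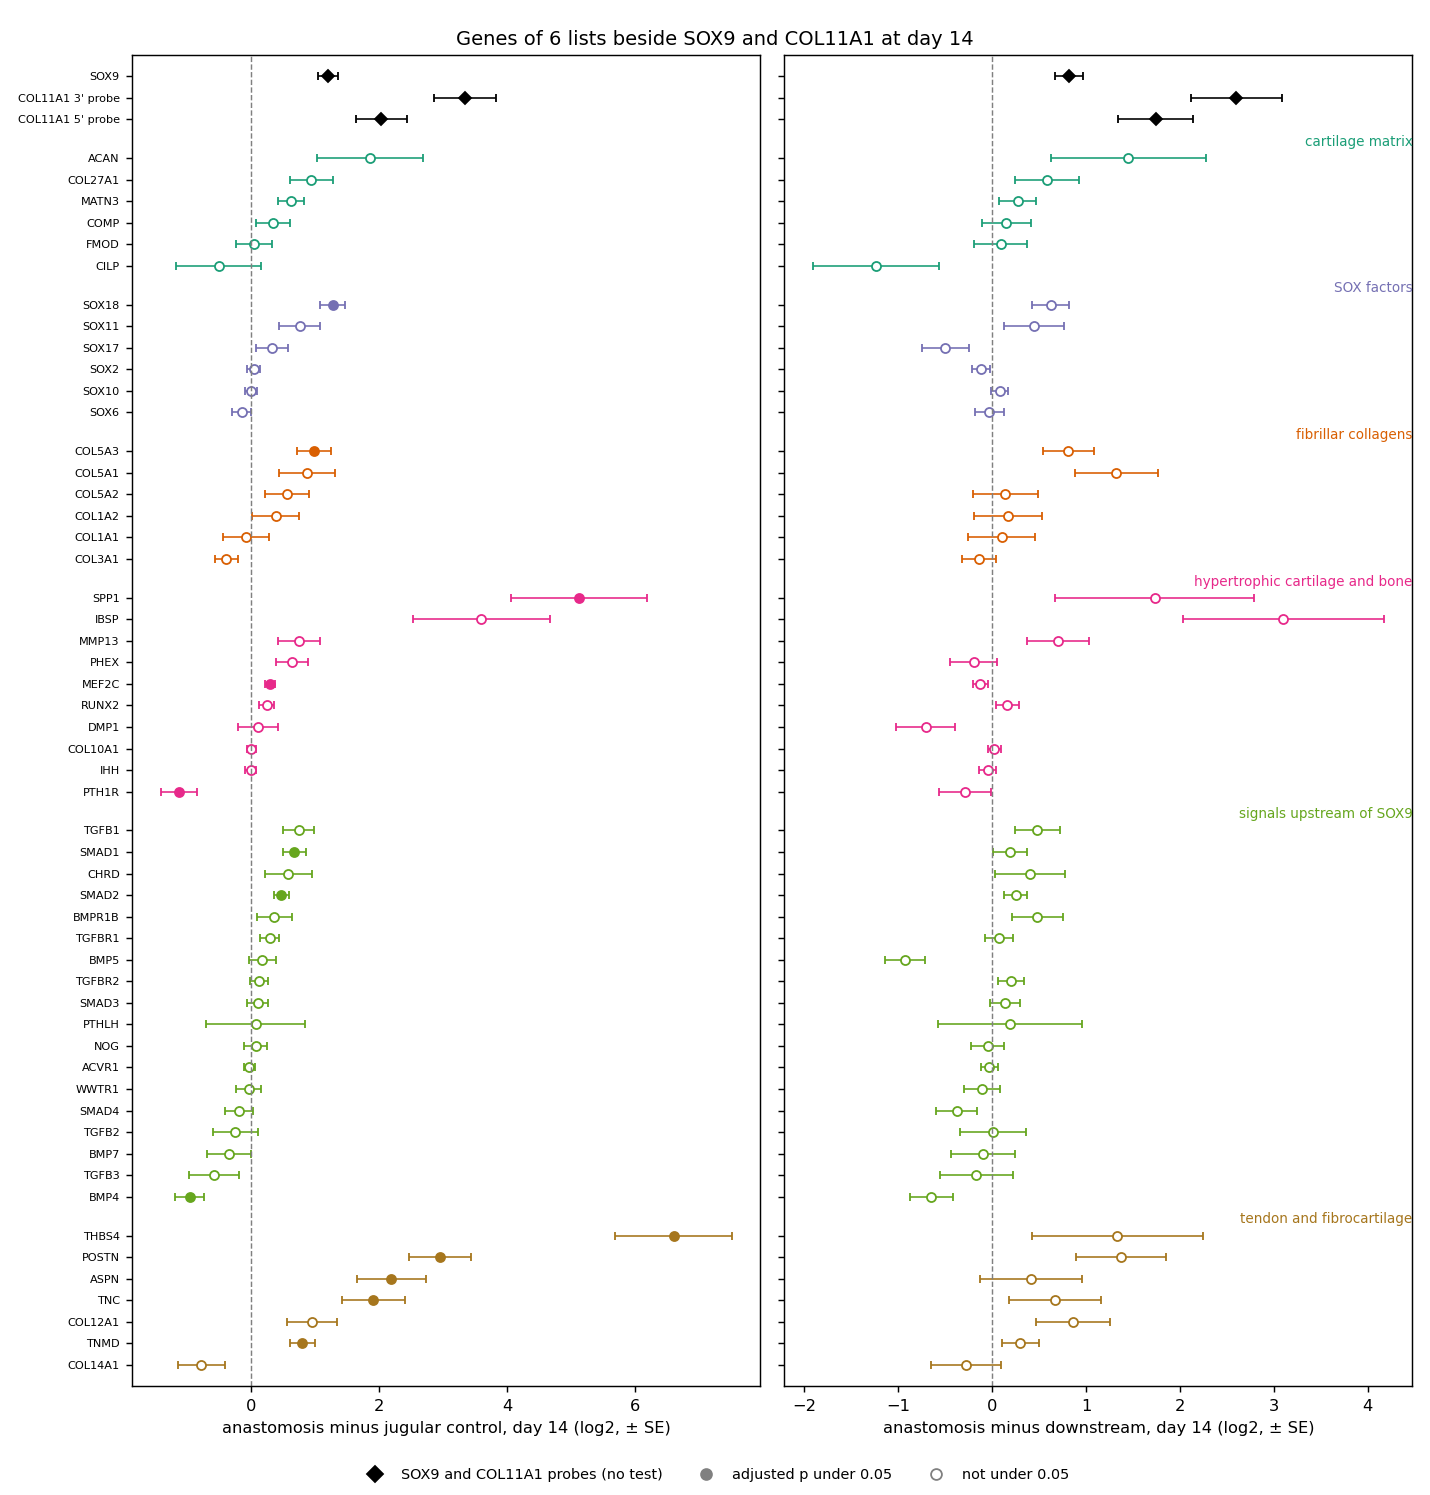
Fitted differences (log2, ± SE) at day 14 of the 3 member probes and the 53 tested genes of the 6 lists, anastomosis against the jugular control on the left and against the downstream vein on the right; filled points have an adjusted p under 0.05 and diamonds were not tested. On the right no list gene is filled, and 0 of 36140 features passed there. IBSP at 3.10 is the only list gene to the right of the COL11A1 3' probe at 2.60.

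Summed levels of cell type markers were set beside the day 14 site difference. Of 5 macrophage genes 3 were measured, and their summed level was 14.94 to 15.45 in the anastomosis samples and 12.89 to 14.77 downstream, ranges that did not overlap. Of those 3 genes 0 passed in limma between these sites, where 0 of 36140 features passed. The share of all features whose ranges part in this way was not counted. Cartilage markers (ACAN and HAPLN1, 2 of 5 measured) summed to 10.20 to 14.34 and 9.30 to 11.97, with HAPLN1 at background and COL2A1 not analysed here. The sums of smooth muscle markers were 14.30 to 16.31 and 14.59 to 18.05, of fibroblast markers 14.99 to 15.93 and 14.83 to 17.00, and of endothelial markers 15.78 to 16.08 and 15.82 to 16.38, all overlapping. At day 5, where the SOX9 and COL11A1 ranges of the graft sites overlapped, macrophage sums were 15.18 to 15.53 at the anastomosis and 14.85 to 15.56 downstream. Adipocyte sums varied widely at day 14, from 14.72 to 18.46 at the anastomosis and from 13.22 to 18.44 downstream. In the day 14 control they ran from 11.08 to 19.27. The part of any of these cell types in the member genes was not tested.

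The 6 genes whose levels most resembled each probe, by Pearson correlation over the 24 samples among 5787 genes, held no name shared by SOX9 and COL11A1. For SOX9 they were TBC1D1 (0.88), TMEM158 (0.84) and CACNA1D (0.82). For the COL11A1 3' probe EDN3 (0.87), MPZL2 (0.85) and GPNMB (0.83) came first, and for the 5' probe VWA5A (0.84), HVCN1 (0.78) and SMOX (0.77). Over the 16 graft samples alone the first of each was 0.73, 0.85 and 0.85. MPZL2 alone was among the first 6 of both COL11A1 probes. The points share arrays, dye, quantification protocol and scan dates with the member probes.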

How the data were processed

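Total RNA of 24 vein samples was labelled for 2 colours and hybridised to 16 Agilent pig arrays, per the labels' protocols. The deposited scanner files hold linear intensity values of each spot, quantified (per the file headers) by Feature Extraction 10.5.1.1. The authors also deposited a table of log2 values; the sources do not state the steps behind it, and its columns' medians centred on 7.39, so genes were not centred at 0.

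In limma 3.58.1 (R 4.3.3), each channel was corrected by normexp (offset 50), normalised by loess within arrays with control and outlier spots at weight 0, and by Aquantile between arrays. Each sample is its own channel's log2 value. Symbols were assigned to 9050 probes (20.8%) from gene names, accessions and gene IDs in the files, matched to reference gene symbols. Of 4472 probes named in both annotation versions, 99.4% had the same symbol. A list gene with several probes is its brightest. Testing covered the 36140 features that were well above background in 4 or more samples. For differences between sites, lmFit and eBayes took all 24 samples and a block per number and day (8 blocks, 12 residual degrees of freedom); for differences between days they took the 8 samples of that site, without a block. Two-sided p-values had a Benjamini-Hochberg adjustment across every feature tested, and 0.05 was the threshold. They measure the spread between labelled biological replicates only. Deviations from the group means of samples of 1 number and day correlated at 0.18 to 0.81 in 24 of 24 pairs over 0.1, which with the shared arrays is where the pairing comes from. Samples of 1 site and number on different days correlated at 0.07 to 0.63 (11 of 12 over 0.1), which the day comparisons leave unmodelled unless stated.

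The scripts were tested on simulated data with known changes. Members, lists and rules were chosen with earlier results of these data known. Named were both genes, list genes past the threshold at the day 14 anastomosis (up to 8 a list), preset cartilage and collagen genes, and the 6 most alike; MATN3, COL27A1, CILP, SOX11, IBSP, COL3A1, BMP5 and TGFB1 were added after their values were seen. Alternatives were other background corrections and scalings, no filter, no block, each replicate left out and the replicates of each quantification protocol alone. Further ones were the scan date as a block, Feature Extraction's processed signals and the deposited table. Of the deposited value columns, 0 lay outside the sample map. Levels are not compared between probes. The green channel of 8 arrays, which has no sample in the labels, was used in normalisation only.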

Additional observations from a re-analysis of the deposited data

Results flagged for a closer look

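In the day 5 downstream vein, SOX9 of replicate 4 was 6.75 on the log2 scale while the other 3 samples lay between 7.24 and 7.29. The gap below its neighbour was 0.920 of the whole range of the group, above the 0.829 that Dixon's test allows for 4 samples. Of 18 groups of a probe checked in this way, 1 stood out, and chance alone marks about 1 group in 20. Without that replicate number the downstream vein exceeded the control at day 5 by 0.83 ± 0.19 (limma adjusted p = 0.118), against 0.83 ± 0.15 (adjusted p = 0.00967) with all 4.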

How the results depend on the processing

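The day 14 difference between anastomosis and downstream vein kept its sign in all 15 alternatives for each probe. It moved by more than the replicate SD under Feature Extraction's processed signals (SOX9 1.60, 3' probe 3.64, 5' probe 4.09), the deposited table without replicate 4 (1.70, 3.69, 3.99) and, for the 5' probe, the whole table (3.70). Leaving out 1 replicate gave 0.69 to 0.97 for SOX9, 2.15 to 2.97 for the 3' probe and 1.54 to 2.14 for the 5' probe. The table without replicate 4 was added after seeing the data.

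At day 5 the site difference changed sign for the 3' probe in the table (-0.22), in replicates 1 and 2 alone (-0.17) and without 1 replicate (-0.03 to 0.85). The 5' probe did so in the table (-0.83), in the table without replicate 4 (-0.16), in replicates 1 and 2 (-0.02) and without 1 replicate (-0.05 to 0.45), and SOX9 in replicates 1 and 2 (0.04). Against the control at day 5, SOX9 lost its call at the anastomosis with no replicate block (0.59, limma adjusted p = 0.152), in replicates 1 and 2 (0.79, 0.114) and in replicates 3 and 4 (0.38, 0.141). It also lost that call without replicate 2 or without replicate 4, and leaving out 1 replicate gave 0.46 to 0.68. Downstream SOX9 lost its call with no replicate block (0.83, limma adjusted p = 0.0862) and in replicates 1 and 2 (0.76, 0.625). The downstream call was also lost without replicate 2, 3 or 4, with differences of 0.78 to 0.87 when 1 was left out. No other member call changed without the block. The 3' probe gained a call at the anastomosis in the table (3.62), the table without replicate 4 (3.77), with no background correction (1.64), processed signals (4.17), replicates 3 and 4 (2.08), single-channel quantiles (1.35) and without replicate 1 (0.90 to 1.59 over replicates), and downstream in the table (3.85). The 5' probe gained one in replicates 3 and 4 (1.64) and downstream in the table (2.95).

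The fitted day 14 excess over the control (SOX9 1.20, 3' probe 3.34, 5' probe 2.03, against a control at or near background) moved in the table (SOX9 3.80, 3' probe 6.89, 5' probe 4.83), without its replicate 4 (3.93, 6.83, 4.44), under processed signals (3.68, 7.15, 4.69) and, for SOX9, with no background correction (1.56). The day change at the anastomosis moved in the table (1.10, 3.66, 3.37), without its replicate 4 (SOX9 1.04, 5' probe 3.00) and under processed signals (5' probe 2.97). The 5' downstream excess at day 14 (0.29) was -0.27 in replicates 1 and 2. The jugular day difference, near 0, changed sign for SOX9 in the table (0.48), without its replicate 4 (0.29), under processed signals (0.06), in replicates 1 and 2 (0.05), with quantiles (0.01) and without 1 replicate (-0.07 to 0.06). It did so for the 3' probe with median centring (-0.08), no background correction (-0.06), replicates 3 and 4 (-0.02), the scan date as a block (-0.02) and quantiles (-0.01), and for the 5' probe with no background correction (-0.01). The cause of these shifts was not tested.

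Median centring moved the median of all features by 0.12 to 0.21 against the control and raised the share of higher calls from 48.7% to 81.7% (anastomosis day 5), 53.8% to 75.9% (day 14) and 40.6% to 84.1% (downstream day 5); under it SOX9 stood 0.54 and 0.81 above the day 5 control. Counts of features called higher at the anastomosis ran over settings from 0 to 10110 at day 5 and 1 to 11248 at day 14. Precision is limited by 4 replicates and, for COL11A1, by control spots at background.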

Other observations

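A few probes resemble the member genes only by a similarity note in their description, and they were found after the member values were seen. A probe noted as similar to part of a platypus sox-9 protein read 8.78 to 11.40 and was well above background in 24 of 24 samples. Its day 14 difference between anastomosis and downstream vein was 0.53 ± 0.27, and against the jugular control it differed by -0.08 at day 14 and 0.00 at day 5, so it did not share the excess over the control that the named SOX9 probe had. A probe noted as similar to type II collagen read 6.15 to 6.52, was well above background in 10 of 24 samples and differed between the day 14 sites by -0.03 ± 0.07. A probe noted as similar to COL11A2, the second chain of type XI collagen, read 10.20 to 12.34 and differed between the day 14 sites by -0.11. Relative to the control it fell by 1.00 ± 0.22 at the day 5 anastomosis (limma adjusted p = 0.00661). Whether these probes read the pig genes themselves was not tested.

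In the columns of the deposited table that carry the replicate 4 labels at day 14, the COL11A1 3' probe read 10.77 for the anastomosis and 7.58 for the downstream vein and the 5' probe 9.47 and 6.64, whereas SOX9 read 7.35 and 7.94, the opposite order to the scanner files.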
